A study of Mus musculus with 12 samples.

Results

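Class I MHC molecules and the transporter that supplies their peptides were described by 10 transcripts, which were taken by gene symbol from the 12809 genes measured. The heavy chains were *H2-K1*, *H2-D1*, *H2-Q6*, *H2-Q7*, *H2-T3*, *H2-T22* and *H2-T23*, the light chain was *B2m*, and the transporter subunits were *Tap1* and *Tap2*. All 10 passed the filter of at least 1 CPM in at least 3 libraries, *H2-T3* only through FlipFlop libraries. RNA came from CD4 and CD8 T cells sorted from lymph nodes (LN) of female B6 (C57BL/6) mice aged 10 weeks and female FlipFlop mice aged 14 weeks, in 12 libraries of 4 groups with 3 replicates each. In FlipFlop mice the *Cd8a* loci encode CD4 and the *Cd4* loci encode CD8αβ.1, so that surface coreceptor and lineage are exchanged. B6 CD4 and FlipFlop CD8 T cells are called helper-lineage here, and B6 CD8 and FlipFlop CD4 T cells cytotoxic-lineage. The *Cd8a* loci encoding CD4 were made in embryonic stem cells of strain 129, and the study's text states that genes of that strain remain in FlipFlop mice. Strain, age and any remaining 129 genes cannot be told apart in this design. The labels do not say whether libraries of 1 group came from separate mice, so p-values measure the spread between these libraries, which may be in part technical.

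Class I molecules are built from a heavy chain and β2-microglobulin, and carry peptides of the cell's own proteins to the surface, where CD8 T cells and NK cells read them. TAP1 and TAP2 together move peptides from the cytosol into the endoplasmic reticulum, where tapasin and other chaperones help to load them. The heavy chains K and D are the classical class I molecules, whereas the Q, T and M genes encode nonclassical molecules with narrower roles. Except for *B2m*, which lies on chromosome 2, all these genes lie in the MHC on chromosome 17, a region whose haplotypes differ between mouse strains. The study's text gives H-2b for both B6 and FlipFlop mice in its skin graft experiment.

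The helper-lineage factor ThPOK, encoded by *Zbtb7b*, matched the labels. It had 192 to 203 CPM in B6 CD4 and 162 to 172 CPM in FlipFlop CD8 T cells, and between 1.16 and 2.79 CPM in both other groups. Values are CPM, the reads of a gene relative to those of its whole library, scaled by TMM, which corrects for composition. The libraries held 26570285 to 33115728 reads on the listed genes, so that 3 reads, the limit that a count of 0 allows, correspond to 0.0857 to 0.120 CPM. A gene was called at an adjusted p under 0.05 in limma with Benjamini-Hochberg adjustment over the 11595 genes tested.

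The promoters of the Q genes are shown because *H2-Q6* and *H2-Q7* were the members that followed the lineage, and those of *H2-K1* and *B2m* because they belong to the abundant heavy and light chains that did not. Each is the stretch of 250 bases before the RefSeq start (GRCm38.p6), written 5′ to 3′ on the gene's strand. Capitals mark the letters GGGATTCC (κB core of enhancer A), TTTCACTT (interferon response core), TGACG (X2 core) and CCAAT (Y core), each searched on both strands.
B2m, chr2:122147437-122147686, plus strand: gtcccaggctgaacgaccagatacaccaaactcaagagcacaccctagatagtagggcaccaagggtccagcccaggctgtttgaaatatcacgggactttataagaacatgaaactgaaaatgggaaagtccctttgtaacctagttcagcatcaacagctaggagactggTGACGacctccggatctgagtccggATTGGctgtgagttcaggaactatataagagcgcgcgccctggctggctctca
H2-K1, chr17:34000348-34000597, minus strand: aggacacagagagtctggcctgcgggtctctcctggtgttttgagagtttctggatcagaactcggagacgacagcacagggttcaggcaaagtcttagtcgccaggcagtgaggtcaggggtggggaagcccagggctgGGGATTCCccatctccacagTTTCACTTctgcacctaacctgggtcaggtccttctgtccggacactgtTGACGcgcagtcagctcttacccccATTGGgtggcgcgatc
H2-Q6, chr17:35424600-35424849, plus strand: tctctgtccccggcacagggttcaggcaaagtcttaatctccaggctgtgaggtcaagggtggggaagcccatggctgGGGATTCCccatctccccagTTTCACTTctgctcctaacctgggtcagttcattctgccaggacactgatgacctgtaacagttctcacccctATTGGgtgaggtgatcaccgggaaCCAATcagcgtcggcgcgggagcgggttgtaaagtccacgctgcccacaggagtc
H2-Q7, chr17:35438905-35439154, plus strand: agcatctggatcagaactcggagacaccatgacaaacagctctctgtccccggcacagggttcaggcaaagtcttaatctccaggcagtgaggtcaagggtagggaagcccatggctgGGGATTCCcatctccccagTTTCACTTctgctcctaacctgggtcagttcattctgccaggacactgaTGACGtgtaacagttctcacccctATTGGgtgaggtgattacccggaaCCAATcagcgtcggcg

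Promoters were found for 9 of the 10 genes, and there was no entry for *Tap2*. GGGATTCC occurred in 4 of the 9 (*H2-K1*, *H2-D1*, *H2-Q6* and *H2-Q7*) and in 0.889% of the 32851 promoters of the same length. TTTCACTT occurred in 6 of the 9 and in 1.36% of all promoters, TGACG in 6 of the 9 and in 17.8%, and CCAAT in 8 of the 9 and in 33.8%. TTTCACTT, TGACG and CCAAT stood together in *H2-K1*, *H2-D1*, *H2-Q7* and *H2-T22*, and in 0.0761% of all promoters. The letters TGACG were not in the *H2-Q6* window, although the promoters of *H2-Q6* and *H2-Q7* were identical at 97.6% of the 210 positions at which both windows had a base, out of 290 alignment columns with 79 gaps at the window ends. *H2-K1* and *H2-D1* were identical at 91.6% of 190 such positions out of 310 columns, with 21 gaps at the ends and the others within. These are reference sequences of the B6 strain, and a match is a description of the letters only. The FlipFlop alleles were not read.

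Heavy chain RNA was dominated by the classical genes in all 4 groups. *H2-K1* and *H2-D1* together made up 75.6% to 82.5% of the CPM of the 7 heavy chains in a library. The summed CPM of the 7 heavy chains was 9173 ± 616 in B6 CD4, 9166 ± 663 in B6 CD8, 8479 ± 491 in FlipFlop CD4 and 7247 ± 771 in FlipFlop CD8 T cells (SD, n = 3). Levels of different genes were compared as CPM per kb of annotated exon sequence. In B6 CD4 T cells *B2m* had the highest level, 4450 ± 476 CPM per kb, before *H2-K1* with 1455 ± 111 and *H2-D1* with 1216 ± 54.8. *H2-Q7* (175 ± 14.3 CPM per kb) and *H2-T23* (172 ± 24.5) came next, followed by *H2-Q6* with 104 ± 3.38. *Tap2* (88.1 ± 9.83 CPM per kb), *H2-T22* (88.0 ± 11.2) and *Tap1* (67.4 ± 12.6) had overlapping ranges, and *H2-T3* was lowest with 0.00749 ± 0.0130. The order below *H2-D1* depends on the length used. Per kb of the longest coding transcript, *H2-Q7* had 490 ± 40.0 CPM and lay above *H2-T23* with 338 ± 48.0, followed by *H2-T22* with 170.5 ± 21.6, *Tap1* with 111 to 152, *H2-Q6* with 104 ± 3.38 and *Tap2* with 96.8 ± 10.8. The ranges of *H2-T22* and *Tap1* overlapped, as did those of *H2-Q6* and *Tap2*. In FlipFlop CD8 T cells, the other helper-lineage group, *H2-Q7* had 160 ± 38.0, *H2-T23* 94.8 ± 8.40 and *H2-Q6* 96.0 ± 17.8 CPM per kb of exon sequence, and 448 ± 106, 186 ± 16.5 and 96.0 ± 17.8 CPM per kb of transcript. In the cytotoxic lineage *H2-Q6* stood at 172 ± 9.99 CPM per kb of exon sequence in B6 CD8 and 154 ± 16.3 in FlipFlop CD4 T cells, and *H2-Q7* at 230 ± 19.4 and 251 ± 26.3.

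**Figure D1:**
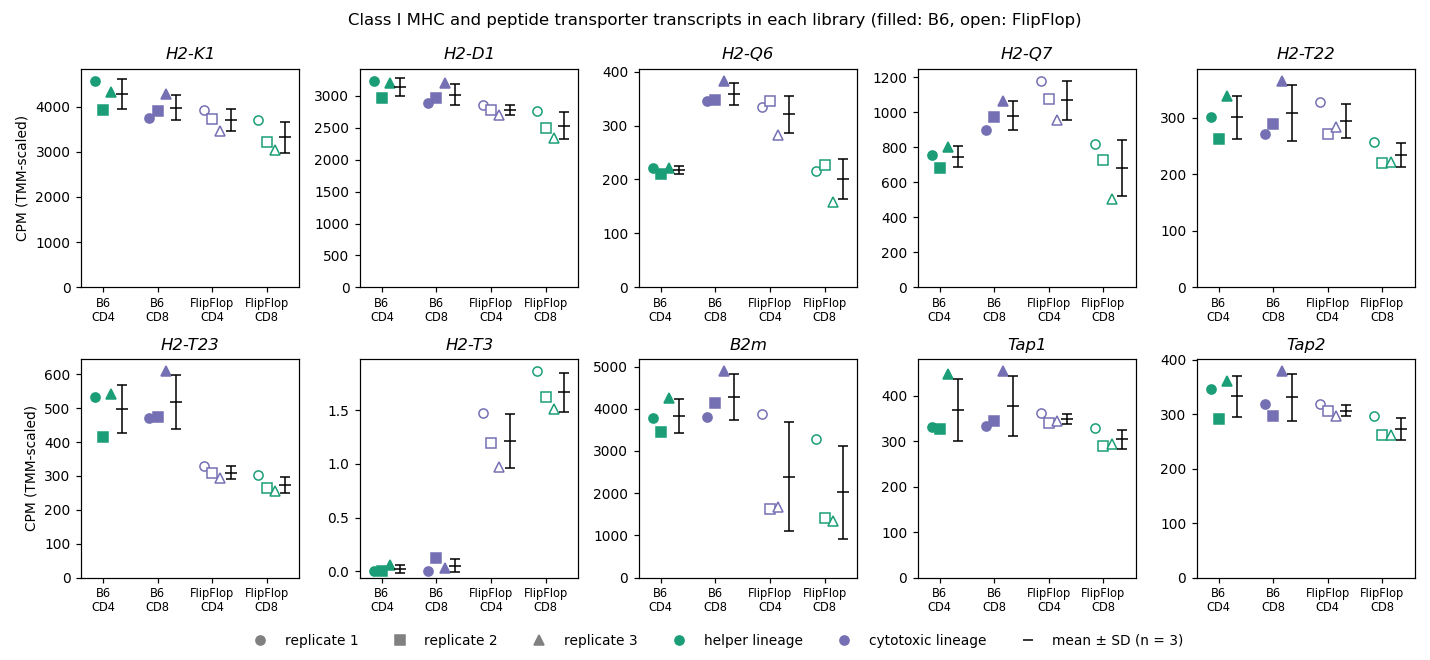
CPM of the 10 transcripts in each of the 12 libraries, 1 panel per gene with its own linear axis, filled symbols for B6 and open symbols for FlipFlop, with shapes for replicate numbers and black bars for mean ± SD (n = 3). *H2-Q6* and *H2-Q7* were higher in both cytotoxic-lineage groups, *H2-T23* was lower and *H2-T3* higher in FlipFlop libraries, and *B2m* was between 1345 and 1685 CPM in 4 of the 6 FlipFlop libraries.

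To separate strain from lineage, 3 effects were taken from a single fit of all 12 libraries. The strain effect is FlipFlop minus B6 T cells, the lineage effect is helper- minus cytotoxic-lineage T cells, and the coreceptor effect is CD4 minus CD8 T cells, each 6 libraries against 6 on the log2(CPM + 0.5) scale. By strain, 5 of the 10 transcripts were called, against 31.2% of all genes tested. Of these, *H2-K1*, *H2-D1*, *H2-T23* and *B2m* were lower in FlipFlop T cells, against 15.4% of all genes, and *H2-T3* was higher, against 15.8%. *H2-T3* passed the filter only through the strain in which it was high and so had to differ, and 4 of the other 9 transcripts were called. With replicate number as a random block, *H2-K1* and *H2-D1* were not called and the count was 3 of 10, as it was without both B6 libraries numbered 3. By lineage, *H2-Q6* and *H2-Q7* were called, 2 of 10 against 39.3% of all genes, and both were higher in the cytotoxic lineage, against 19.4%. With replicate number as a random block, *H2-T22* was called as well (-0.18, adjusted p = 0.047, limma). By coreceptor, none of the 10 was called in limma and none had an unadjusted p under 0.05, against 5.49% of all genes called. The median strain effect was -0.20 over the 10 transcripts and -0.01 over all genes, and the median lineage effect was -0.12 and -0.03. The B6 and FlipFlop libraries did not overlap for *H2-D1*, *H2-T23* and *H2-T3*, 3 of 10 against 5.85% of all genes, or 2 of 9 without *H2-T3*. Helper- and cytotoxic-lineage libraries did not overlap for *H2-Q6* and *H2-Q7*, 2 of 10 against 16.9%.

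These values depend on the TMM scaling made by the authors. Without the TMM factor the median strain effect of all genes moved from -0.01 to 0.10, the share of strain calls that were higher in FlipFlop T cells moved from 50.5% to 81.0%, and among the 10 transcripts *H2-K1* (-0.12) and *H2-D1* (-0.10) were no longer called. Set against that median, both stayed about as far below it as before. For the lineage effect the share of higher calls moved from 50.6% to 75.5%, and *H2-Q6* and *H2-Q7* stayed called. For the coreceptor effect it moved from 31.1% to 16.3%.

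**Figure D2:**
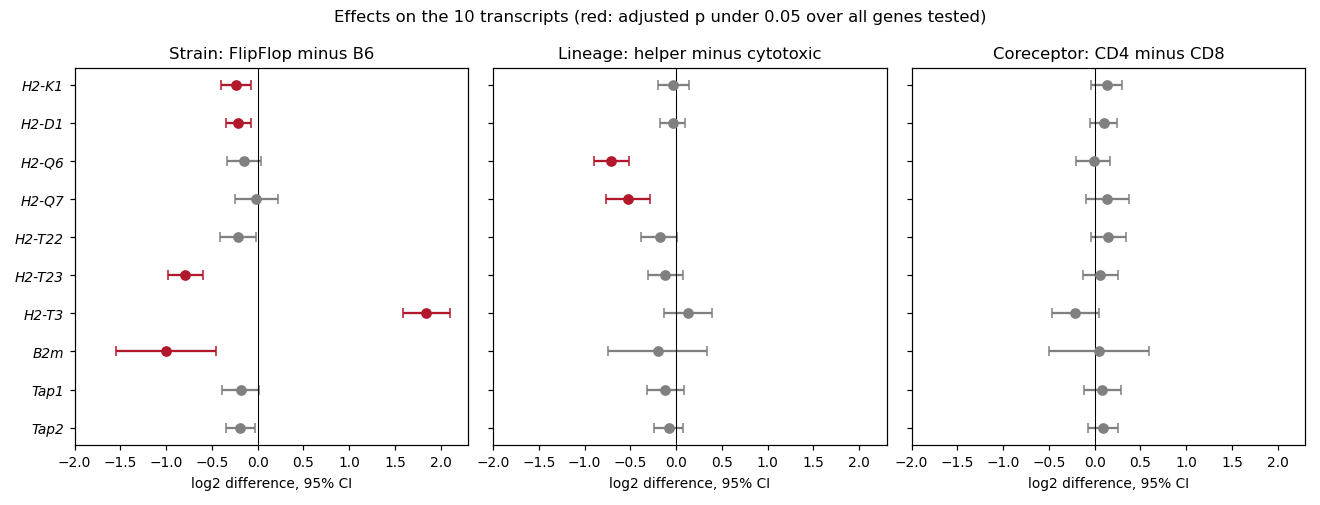
Strain, lineage and coreceptor effects (log2 difference, x axis) of the 10 transcripts with 95% confidence intervals from the limma fit of 12 libraries, red where the adjusted p was under 0.05 over 11595 genes. The called genes of the strain panel (*H2-K1*, *H2-D1*, *H2-T23*, *H2-T3* and *B2m*) and of the lineage panel (*H2-Q6* and *H2-Q7*) have no gene in common, and the coreceptor panel has none.

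*H2-Q6* and *H2-Q7* (chr17:35424850-35430055 and chr17:35439155-35443773, mm10) encode Qa-2 molecules and were higher in the cytotoxic lineage of both strains. *H2-Q6* was at 222, 209 and 221 CPM in the B6 CD4 libraries, at 346, 347 and 383 in B6 CD8, at 334, 346 and 282 in FlipFlop CD4, and at 216, 226 and 158 CPM in the FlipFlop CD8 libraries. Every cytotoxic-lineage library lay above every helper-lineage library, whichever coreceptor the cells carried. The lineage effect was -0.71 ± 0.09 (SE, adjusted p = 3.3e-05, limma), and the mean in the cytotoxic lineage was 1.63 times that in the helper lineage. *H2-Q7* was at 755, 682 and 803 CPM in the B6 CD4 libraries, at 902, 973 and 1067 in B6 CD8, at 1180, 1074 and 956 in FlipFlop CD4, and at 817, 729 and 503 CPM in the FlipFlop CD8 libraries. Again the lineages did not overlap. The lineage effect was -0.53 ± 0.11 (SE, adjusted p = 0.0019, limma), and the ratio of the means was 1.44.

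Within B6 mice the CD4 minus CD8 difference was -0.72 (adjusted p = 0.00081, limma) for *H2-Q6* and -0.39 (adjusted p = 0.088) for *H2-Q7*, so that 1 of the 10 transcripts was called against 25.4% of all genes. Within FlipFlop mice it was 0.69 (adjusted p = 0.00095) and 0.67 (adjusted p = 0.0054), 2 of 10 against 31.3%. The lineage effect is the test of the difference between both strains. With replicate number as a fixed block, *H2-T22* was also called in FlipFlop T cells (log2 difference 0.33, adjusted p = 0.066 without and 0.040 with the block in limma). In B6 T cells the random block called *H2-Q7* as well (adjusted p = 0.027, limma). The strain effects of *H2-Q6* and *H2-Q7* were -0.15 (95% CI -0.34 to 0.04) and -0.02 (95% CI -0.25 to 0.22), and the latter turned to 0.10 without the TMM factor.

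Reads of the Q genes cannot be assigned with certainty. Values of *H2-Q6* and *H2-Q7* were fractions of reads in all 12 libraries, as were those of *H2-K1*, *H2-D1*, *H2-T22* and *H2-T23*. How reads were split when they were counted is not given in the sources used here. Of the stretches as long as 1 read in the longest coding transcript, 7.19% were also found in another gene for *H2-Q6* and 13.1% for *H2-Q7*, most of them in each other, against 0% for *H2-K1*, *H2-T3*, *B2m*, *Tap1* and *Tap2*. Only exact matches were counted, so 0% does not mean that no reads were shared. The sum of both genes, which does not depend on how reads are split between them, was 964 ± 67.2 CPM in B6 CD4, 1339 ± 102 in B6 CD8, 1391 ± 141 in FlipFlop CD4 and 883 ± 197 in FlipFlop CD8 T cells (SD, n = 3). The highest helper-lineage library had 1033 CPM and the lowest cytotoxic-lineage library 1238 CPM, so the sum did not overlap either. The gene most like *H2-Q6* over the 12 libraries was *Tagln2* (root mean square difference of centred log2 values 0.114), followed by *Gpd1l* (0.121) and *Ccnq* (0.130). For *H2-Q7* the nearest genes were *Hscb* (0.131), *Smpd1* (0.140) and *5830454E08Rik* (0.151). Regulatory T cell markers moved with the lineage as well. Their summed CPM (5 of 5 markers, none at 0 in every library) was 277 to 379 in B6 CD4 and 821 to 978 in FlipFlop CD8 T cells, against 14.2 to 31.3 in the cytotoxic lineage, and those of 7 myeloid and dendritic cell markers were 16.6 to 31.0 CPM in the helper and 7.47 to 20.0 CPM in the cytotoxic lineage, with 3 of the 4 tested called as higher in the helper lineage (median 0.90), against 19.9% of all genes. The part of these cells in the Q gene differences was not tested. In sorted bulk samples, fewer cells of a type and less RNA per cell cannot be told apart.

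*B2m* (ENSMUSG00000060802.8, chr2:122147686-122153083, mm10), which encodes the light chain shared by these heavy chains, split the FlipFlop libraries by replicate number. It was at 3781, 3442 and 4257 CPM in the B6 CD4 libraries, at 3801, 4147 and 4886 in B6 CD8, at 3873, 1618 and 1685 in FlipFlop CD4, and at 3290, 1421 and 1345 CPM in the FlipFlop CD8 libraries. FlipFlop CD4 replicate 1 lay within the range of B6 and FlipFlop CD8 replicate 1 just below its lowest library, whereas the other 4 FlipFlop libraries did not exceed 1685 CPM. The libraries numbered 2 and 3 had 0.374 times, and those numbered 1 had 0.884 times, the mean of B6. Over all 6 FlipFlop libraries the strain effect was -1.0 ± 0.25 (SE, adjusted p = 0.012, limma), and it was -1.41 when both libraries numbered 1 were left out, a choice made after the values were seen. In FlipFlop CD4 T cells the SD was 1283 CPM beside a mean of 2392 CPM. The lineage effect of *B2m* was -0.20 (95% CI -0.75 to 0.34). Values of *B2m* were whole reads in all 12 libraries, to within 0.003 read.

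None of the other 9 transcripts split in this way. Their means in the libraries numbered 2 and 3 were 0.793 to 0.92 times those in the libraries numbered 1, against 0.424 for *B2m*. Among all genes tested, both libraries numbered 1 lay beyond the other 4 FlipFlop libraries, on either side, for 14.8%. Among the 92 other genes tested within 5 Mb of *B2m*, 27 (29.3%) did so, and 6 (6.52%) did so with more than a 1.5-fold difference, against 0.966% of all genes. These shares were 21.7% and 4.35% within 1 Mb, 30% and 5% within 2 Mb, and 24.2% and 4.24% within 10 Mb. Of the 6 genes, *Eif3j1*, *Gm28042* and *Bmf* were lower in the libraries numbered 2 and 3 than in those numbered 1, as *B2m* was, and *Ehd4*, *Inafm2* and *Ttbk2* were higher. *Eif3j1*, which starts 0.119 Mb before *B2m* and encodes a subunit of a translation initiation factor, had the pattern nearest to *B2m* on that stretch. It had 62.5 and 51.3 CPM in the FlipFlop libraries numbered 1, 26.8 to 34.8 CPM in the other 4 and 52.1 to 62.0 CPM in B6. Over the whole genome the 3 genes most like *B2m* were *Ahcy* (root mean square difference 0.188), *Eif3j1* (0.257) and *Acss2* (0.287). All 3 lie on chromosome 2, *Ahcy* and *Acss2* more than 10 Mb from *B2m*. The strain effects of the 3 genes were -0.99, -0.62 and -1.49. What the libraries with the same number share is not named in the labels, and this comparison was chosen after the values were seen.

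**Figure D3:**
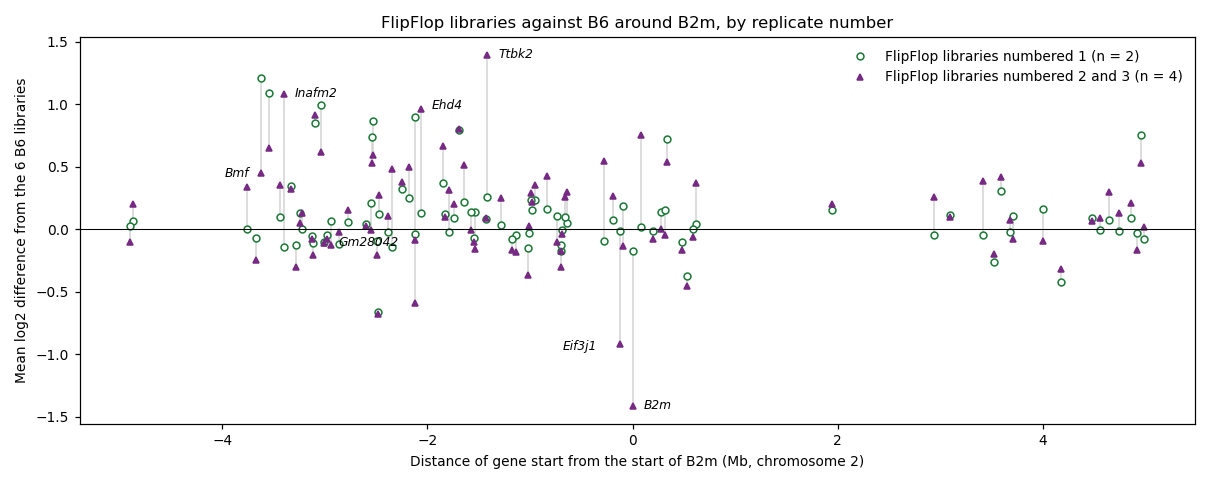
Mean log2 difference from the 6 B6 libraries (y axis) of genes tested within 5 Mb of *B2m*, against distance from its start in Mb, for the FlipFlop libraries numbered 1 (open circles, n = 2) and those numbered 2 and 3 (triangles, n = 4), with a grey line joining both values of a gene. *B2m* stood at -0.17 and -1.41 and *Eif3j1* at -0.02 and -0.92. *Ttbk2* (0.26 and 1.40), *Inafm2* (-0.14 and 1.08) and *Ehd4* (0.13 and 0.96) differed in the other direction.

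*H2-T23* (ENSMUSG00000067212.8, chr17:36029773-36032855) encodes the heavy chain of Qa-1, a ligand of inhibitory receptors of NK and CD8 T cells, and was lower in FlipFlop T cells of either lineage. It was at 534, 416 and 543 CPM in the B6 CD4 libraries, at 472, 473 and 608 in B6 CD8, at 329, 308 and 293 in FlipFlop CD4, and at 301, 266 and 255 CPM in the FlipFlop CD8 libraries. No FlipFlop library reached the lowest B6 library. The mean in FlipFlop T cells was 57.5% of that in B6 T cells, and the strain effect was -0.79 ± 0.09 (SE, adjusted p = 7.9e-05, limma). Within the helper lineage the difference was -0.85 (adjusted p = 6.0e-04), and within the cytotoxic lineage -0.73 (adjusted p = 0.0031). The lineage effect was -0.12 (95% CI -0.31 to 0.07). An antisense transcript annotated across this gene and part of *H2-T22*, *A930015D03Rik*, rose in FlipFlop T cells, from 0.338 to 0.861 CPM in B6 to 6.25 to 8.54 CPM, and it too passed the filter only through FlipFlop libraries. The counting is not stated to use strand, so reads of a gene and its antisense partner cannot be told apart.

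*H2-T3* (ENSMUSG00000054128.16, chr17:36185572-36190287) encodes the thymus leukemia antigen, a nonclassical class I molecule that binds CD8αα, and was the only heavy chain of the 7 called as higher in FlipFlop T cells. The B6 CD4 libraries held 0, 0 and 2 reads and the B6 CD8 libraries 0, 3 and 1 reads, 6 reads in all. The FlipFlop CD4 libraries had 1.48, 1.20 and 0.967 CPM and the FlipFlop CD8 libraries 1.86, 1.62 and 1.51 CPM, or 264 reads in all. Every FlipFlop library was above every B6 library, none of which exceeded 3 reads. The ratio of FlipFlop to B6 was 41.8, with an exact 95% interval of 18.9 to 114.9 that covers counting error only. The strain effect was 1.84 ± 0.12 (SE), and it ran from 1.23 with a pseudocount of 1 CPM to 3.54 with 0.1 CPM. Since the gene passed the filter only through FlipFlop libraries, these values are a description. The level in FlipFlop T cells was still low, 0.611 ± 0.0658 CPM per kb in FlipFlop CD8 T cells. Its nearest genes were *AC125456.1* (root mean square difference 0.223), *Gm6685* (0.254) and *Setbp1* (0.283), a likeness that rests on B6 values near 0.

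The classical heavy chains differed less. *H2-K1* (chr17:33996017-34000347) was at 4568, 3926 and 4332 CPM in the B6 CD4 libraries, at 3750, 3906 and 4276 in B6 CD8, at 3927, 3718 and 3454 in FlipFlop CD4, and at 3700, 3215 and 3040 CPM in the FlipFlop CD8 libraries. *H2-D1* (chr17:35262730-35267499) had 3236, 2974 and 3197 CPM, 2892, 2967 and 3209 CPM, 2860, 2784 and 2709 CPM, and 2764, 2502 and 2345 CPM in the same order. The strains overlapped for *H2-K1* and were apart by a narrow gap for *H2-D1*, for which the highest FlipFlop library had 2860 CPM and the lowest B6 library 2892 CPM. The strain effects were -0.24 ± 0.08 (SE, adjusted p = 0.037, limma) and -0.21 ± 0.06 (adjusted p = 0.028), and FlipFlop T cells had 85.0% and 86.4% of the B6 mean. With replicate number as a random block within strain neither was called (adjusted p = 0.069 and 0.055, limma). Both were called with a fixed block, which also joins B6 and FlipFlop libraries of the same number, a link that no label gives. Each call was lost when certain single libraries were left out, 6 of the 12 for *H2-D1* (B6 CD8 replicates 2 and 3, and replicates 2 and 3 of both FlipFlop groups) and 8 for *H2-K1* (the same and B6 CD4 replicates 1 and 3). The effects ran from -0.28 to -0.21 for *H2-K1* and from -0.24 to -0.19 for *H2-D1*. *Rer1* was the nearest gene to both (root mean square difference 0.048 and 0.041).

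*H2-T22* (chr17:36037128-36042747), whose product is a ligand of some γδ T cell receptors, had 262 to 365 CPM in B6 and 219 to 327 CPM in FlipFlop T cells. Its strain effect was -0.21 (95% CI -0.41 to -0.02, adjusted p = 0.088, limma). *Tap1* (chr17:34187553-34197225) had 327 to 454 CPM in B6 and 290 to 362 CPM in FlipFlop T cells, with a strain effect of -0.18 (95% CI -0.39 to 0.02, adjusted p = 0.15). *Tap2* (chr17:34203527-34216321) had 291 to 379 CPM and 262 to 318 CPM, with -0.19 (95% CI -0.35 to -0.03, adjusted p = 0.064). All 3 were highest among B6 libraries in both libraries numbered 3, with 338 and 365 CPM of *H2-T22*, 449 and 454 CPM of *Tap1* and 361 and 379 CPM of *Tap2*. These libraries also had the highest summed level of interferon-stimulated genes, and without them the strain effects were -0.10 for *H2-T22*, -0.04 for *Tap1* and -0.11 for *Tap2*, a choice made after the values were seen. The ranges of B6 and FlipFlop libraries overlapped for all 3 genes, and none was called by strain, lineage or coreceptor without a replicate block. With replicate number as a fixed block, which joins both strains, *Tap2* was called by strain (adjusted p = 0.035, limma). It was not called with the random block within strain. The gene nearest to *Tap1* was *Tapbp* (root mean square difference 0.067), which encodes tapasin.

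Helper-lineage T cells of both strains were also compared directly, as were cytotoxic-lineage T cells. FlipFlop CD8 minus B6 CD4 T cells called 5 of the 10 transcripts, against 27.6% of all genes, or 4 of 9 without *H2-T3*. The 5 were *H2-K1* (-0.37), *H2-D1* (-0.31), *H2-T23* (-0.85) and *B2m* (-1.05), which were lower, and *H2-T3* (2.06). With replicate number as a fixed or a random block the count was 7, adding *H2-T22* (-0.36, adjusted p = 0.051 without a block, 0.030 with the fixed and 0.039 with the random block in limma) and *Tap2* (-0.28, adjusted p = 0.061, 0.033 and 0.049). The count was 2 when the libraries of those groups were fitted alone, without both B6 libraries numbered 3, and also without B6 CD4 replicate 1 or 3 or FlipFlop CD8 replicate 2 or 3. FlipFlop CD4 minus B6 CD8 T cells called *H2-T23* (-0.73) and *H2-T3* (1.63), 2 of 10 against 7.92%, or 1 of 9 without *H2-T3*. There *H2-K1* had -0.10 (95% CI -0.34 to 0.13), *H2-D1* -0.12 (95% CI -0.32 to 0.08) and *B2m* -0.96 (95% CI -1.73 to -0.18, adjusted p = 0.13, limma). With both FlipFlop libraries numbered 1 left out, *B2m* was called in this comparison (-1.37, adjusted p = 0.00019, limma), and without FlipFlop CD4 replicate 1 alone 3 transcripts were called. The difference between both lineages in their strain effect is -2 times the coreceptor effect, and no transcript was called for it.

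Along the MHC, from *H2-K2* to *H2-M2* (chr17:33974659-37483552), 100 genes were tested, and 27 were lower and 13 higher in FlipFlop T cells, against 15.4% and 15.8% of all genes. Of the 100 genes, 14 were called and changed by more than 1.5-fold, against 6.55% of all genes. The 5 largest effects among them were those of *Ddr1* (-3.11), a collagen receptor gene, *H2-T10* (3.07), *A930015D03Rik* (2.94), *H2-T3* (1.84) and *Gm19684* (1.12). *H2-T10*, *H2-T3* and *Gm19684* lie between *H2-T24* and *H2-T3*, whereas *Ddr1* starts before *H2-T24*, at 1.69 Mb from *H2-K1* against 2.01 Mb. Of the 7 genes tested from *H2-T24* to *H2-T3*, 5 were higher and 1 lower, and 6 were called and changed by more than 1.5-fold. Some of these genes, *H2-T3* and *A930015D03Rik* among them, passed the filter through libraries of a single strain and so had to differ. Of the 94 genes of the region with at least 1 CPM in libraries of both strains, 26 were lower and 10 higher, and 11.7% were called and changed by more than 1.5-fold, against 5.56% of all such genes. From *H2-T24* to *H2-T3* there were 5 such genes, of which 3 were higher and 1 lower, all 4 by more than 1.5-fold. Of the 24 genes at the end of the region that holds *H2-K1*, *Tap1*, *Tap2* and the class II genes, 9 were lower and 3 higher, and 4 changed by more than 1.5-fold. Of the 8 genes from *H2-D1* to *H2-Q10*, 4 were lower, and 1 changed by more than 1.5-fold.

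**Figure D4:**
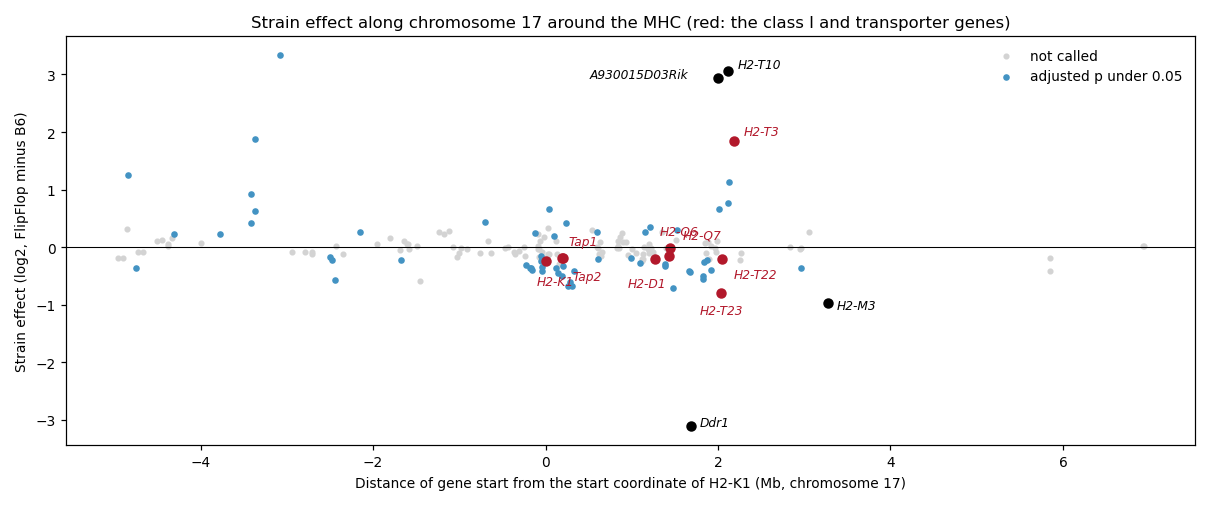
Strain effect (log2, FlipFlop minus B6, y axis) of genes tested on chromosome 17 against the distance of their start coordinate from that of *H2-K1* in Mb, blue where the adjusted p was under 0.05 and grey otherwise. The members (red) lie between -0.79 (*H2-T23*) and 1.84 (*H2-T3*), and *H2-T10*, *A930015D03Rik*, *H2-M3* and *Ddr1* (black) are shown for comparison.

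Other class I genes differed by strain as well. Of 28 listed heavy chain and class I-like genes 13 were measured and 11 tested, and by strain 3 were higher and 4 lower in FlipFlop T cells, 63.6% called against 31.2% of all genes. *H2-T10*, annotated as a polymorphic pseudogene and a close relative of *H2-T22*, had 14.9 to 22.03 CPM in B6 and 124.7 to 201 CPM in FlipFlop T cells. Of its stretches as long as 1 read 3.98% are shared with *H2-T22*. *H2-M3*, whose product presents formylated bacterial peptides, fell by 0.98 ± 0.07 on the log2 scale (SE, adjusted p = 3.2e-06, limma), and *H2-Q10* fell by 0.71. The latter had only 36.4 to 119 reads in a library, and its values were fractions of reads in all 12. *H2-T24* rose by 0.66. By lineage 1 was higher and 5 were lower in the helper lineage, 54.5% called against 39.3%. The class I-like gene *Fcgrt*, which encodes the neonatal Fc receptor, had the largest lineage effect among these, -3.23, with a mean of 4.83 CPM in the helper and 49.6 CPM in the cytotoxic lineage. *H2-Q2* had 2.70 in the other direction, with 4.35 and 0.271 CPM, and passed the filter only through helper-lineage libraries.

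Of 10 genes for peptide loading and trimming, chaperones and the Sec61 translocon, none of which are members, 1 was lower in FlipFlop T cells, against 15.4% of all genes. This was *Sec61b* (-0.37), which encodes a translocon subunit. The strain effect was negative in 9 of the 10, with a median of -0.16 beside -0.20 over the members and -0.01 over all genes. *Tapbp* (-0.18), *Calr* (-0.16), *Pdia3* (-0.03) and *Erap1* (-0.20) did not pass the test. Without both B6 libraries numbered 3, chosen after seeing the data, the median strain effect of the 10 genes was -0.05 (-0.36 to 0.11). By lineage 3 were higher in the cytotoxic lineage, against 19.4% of all genes. These were *Tapbpl* (-1.02), which encodes the tapasin-related editor TAPBPR, the peptide-trimming *Erap1* (-0.43) and *Sec61b* (-0.35). *Pdia3*, which encodes the disulfide isomerase of the peptide loading complex, was higher in the helper lineage (0.34), against 19.9%.

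All 5 genes of the immunoproteasome and its activator, which cut proteins into class I peptides, were lower in FlipFlop T cells, against 15.4% of all genes. The strain effects were -0.57 for *Psmb10*, -0.51 for *Psmb9*, -0.44 for *Psme2*, -0.33 for *Psmb8* and -0.33 for *Psme1*. All 3 catalytic subunits of the standard proteasome were also lower, against the same 15.4%, with -0.32 for *Psmb5*, -0.28 for *Psmb6* and -0.26 for *Psmb7*. Without both B6 libraries numbered 3, which had the highest summed level of interferon-stimulated genes, 3 of the 5 and 2 of the 3 were called as lower, against 12.3% of all genes, with strain effects from -0.44 to -0.26 and from -0.31 to -0.29. By lineage, *Psme1* (-0.39), *Psmb10* (-0.35) and *Psme2* (-0.30) were higher in the cytotoxic lineage, 3 of 5 against 19.4%, and none of the 3 standard subunits was called in limma, with unadjusted p-values of 0.68, 0.84 and 0.52.

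Of 19 genes for regulators of class I transcription, 2 were higher in FlipFlop T cells, *Nfkb1* (0.20) and *Rfx5* (0.19), against 15.8% of all genes, and none was lower. *Nlrc5*, which encodes the class I transactivator, had a strain effect of 0.05 and was higher in the cytotoxic lineage (lineage effect -0.44, adjusted p = 0.0032, limma). By lineage 5 of the 19 were called, 2 as higher in the helper and 3 in the cytotoxic lineage, against 19.9% and 19.4% of all genes. *Irf1* had a strain effect of -0.44 (95% CI -0.80 to -0.08, adjusted p = 0.061, limma). Of 21 interferon-stimulated genes 2 were lower in FlipFlop T cells, *Ifi47* (-0.57) and *Oasl2* (-2.40), against 15.4% of all genes. The summed CPM of the 21 genes was 3166 and 3517 in the B6 libraries numbered 3, 1424 to 1627 in the other 4 B6 libraries and 1163 to 2013 in FlipFlop libraries. Without the B6 libraries numbered 3, chosen after seeing the data, 5 of the 19 regulators were higher in FlipFlop T cells and 0 lower. Of the 21 interferon-stimulated genes 2 were then higher and 1 lower, with a median of 0.03, against -0.28 with all libraries. Of all 11595 genes 1506 were higher and 1428 lower.

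**Figure D5:**
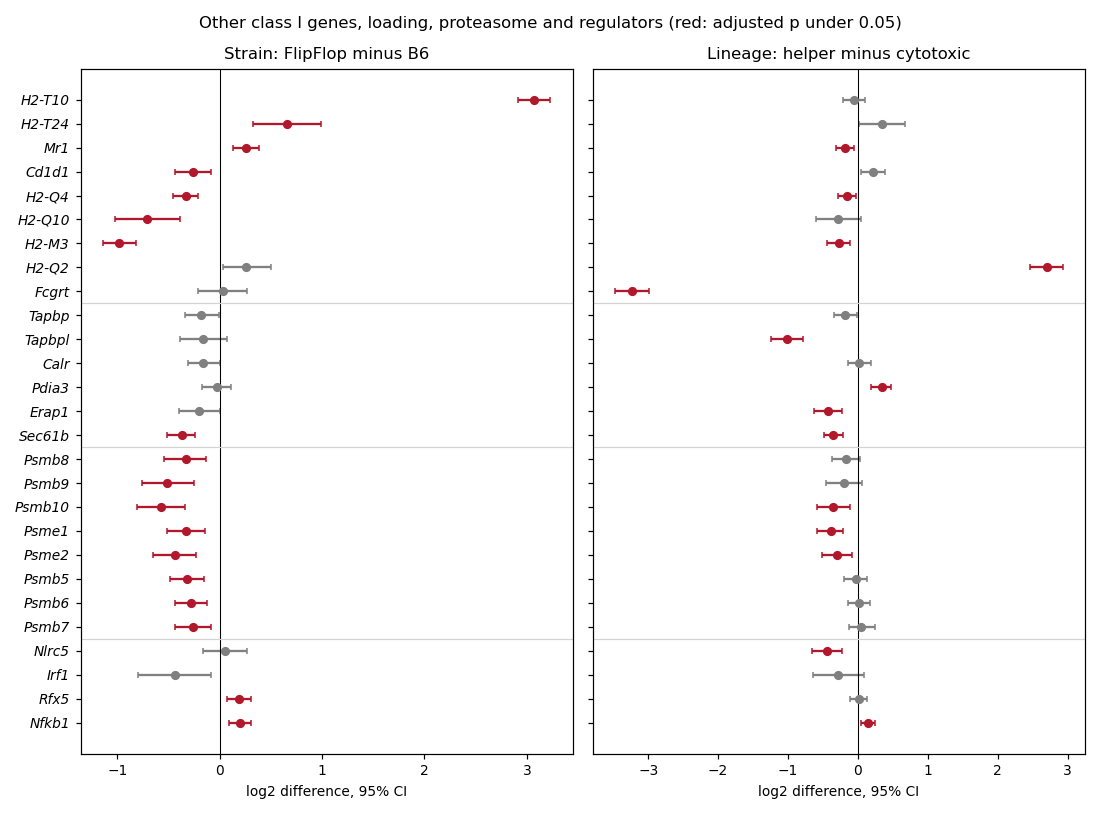
Strain effect and lineage effect (log2 difference with 95% confidence interval) of other class I genes, loading and translocon genes, proteasome genes and regulators, in blocks from top to bottom, red where the adjusted p was under 0.05 over all genes tested. All 8 proteasome genes lie left of 0 in the strain panel, and *Fcgrt*, *Tapbpl* and *H2-Q2* lie farthest from 0 in the lineage panel.

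Marker lists of other cells were compared by strain as well. All 5 regulatory T cell markers were higher in FlipFlop T cells (median strain effect 1.20), against 15.8% of all genes, with the sums given for the Q genes. The summed CPM of 8 B cell markers, which B cells express along with class I and class II molecules, was 53.4 to 74.0 in B6 and 41.3 to 62.3 in FlipFlop libraries, with 3 of the 7 tested called as lower, against 15.4% of all genes, *Cd79a* and *Ms4a1* among them, and no marker at 0 throughout. The sum of 11 class II genes was 302 to 459 and 272 to 371 CPM, with 7 called as lower and 2 as higher, against 15.4% and 15.8% of all genes. The 4 red blood cell genes had 15.9 to 28.8 and 6.67 to 14.2 CPM. Of 10 myeloid and dendritic cell markers 7 were listed, with sums of 9.04 to 31.0 and 7.47 to 28.4 CPM, and 1 of the 4 tested was called as lower, against 15.4%. Of 5 NK cell markers 2 were listed, with sums of 5.67 to 9.52 CPM in B6 CD4, 22.6 to 30.4 in B6 CD8, 14.4 to 22.2 in FlipFlop CD4 and 17.8 to 23.5 CPM in FlipFlop CD8 T cells. The part of such cells in the strain effects of the class I genes was not tested. Of 12 T cell markers, the coreceptor genes included, 2 were higher and 4 lower in FlipFlop T cells, against 15.8% and 15.4% of all genes. Their summed CPM was 7183 to 8494 in B6 CD4, 8953 to 8990 in B6 CD8, 7677 to 8602 in FlipFlop CD4 and 5590 to 6235 in FlipFlop CD8 T cells.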

How the data were processed

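Total RNA from sorted LN T cells was made into cDNA with a low-input kit, sequenced as paired-end reads and aligned to mm10 by the authors. The paper names STAR, and the submitters' processing notes name Trimmomatic and TopHat. The counter, annotation and filter are not given in the sources used here. The deposited signal is CPM after TMM scaling, whose columns sum to 875501 to 1081793, and all values are steps of 0.01 read (84.8% to 86.4% whole reads under 100 CPM), too few for a test on counts.

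From the deposited values, log2(CPM + 0.5) was fitted with limma 3.58.1 in R 4.3.3 (eBayes with trend), with 4 group means, 12 libraries, no block and 8 residual degrees of freedom. P-values were adjusted by Benjamini-Hochberg over 11595 genes, and 1214 genes were not tested. The fit was tested on simulated data. Positions came from GENCODE M21, which matched 12809 of 12809 identifiers, and promoters from RefSeq.

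The members, the gene lists and the comparisons were chosen with earlier results of these data known. Genes were named by a rule: all members, called genes of each list by size, preset regulators, the 5 largest strain effects of the MHC and the 3 genes nearest to a member. *Eif3j1* and 5 more genes near *B2m* were added after their values were seen. Some genes of the rule are not reported here. Deviations of same-numbered FlipFlop CD4 and CD8 libraries correlated at 0.44, 0.27 and 0.51, so the number was taken as pairing FlipFlop libraries. The main fit does not use the pairing, and blocked values are given where they change a call. Alternatives were other pseudocounts, filters, scalings and thresholds, a linear model without eBayes, fits of 2 groups, replicate blocks and each library left out. The fixed block joined libraries of the same number in both strains, and the random block those of the same strain and number.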

Additional observations from a re-analysis of the deposited data

Results flagged for a closer look

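The CD4 minus CD8 difference of *H2-Q6* and *H2-Q7* differed between B6 and FlipFlop T cells by a test of the difference itself. The lineage effect, which is 0.5 of that difference, was -0.71 for *H2-Q6* and -0.53 for *H2-Q7*, and the 6 libraries of each lineage did not overlap for either gene. With 3 replicates per group, no test for single libraries far from their group was made.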

How the results depend on the processing

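Of the 10 transcripts 5 were called by strain, 2 by lineage and none by coreceptor. The strain count was 3 without the TMM factor, 3 with a change of over 1.5-fold as well, and 3 with the replicate block as a random term (6 with the block as a fixed term, which also called *Tap2*), the calls lost being *H2-K1* and *H2-D1*. Without both B6 libraries numbered 3, chosen after seeing the data, the strain count was 3 and that of FlipFlop CD8 minus B6 CD4 was 2, *H2-K1* (-0.20) and *H2-D1* (-0.18) were not called by strain, and *H2-Q7* had a strain effect of 0.04. The strain count was 5 at pseudocounts of 0.1 and 1. The random block gave 3 lineage calls, adding *H2-T22*, and either block gave 7 calls of FlipFlop CD8 minus B6 CD4, adding *H2-T22* and *Tap2*. A change of over 1.5-fold left 1 lineage call (*H2-Q6*) and 3 calls of FlipFlop CD8 minus B6 CD4. At p under 0.0001 and over 5-fold, 0 transcripts were called in any of the 7 comparisons, against 5, 2, 0, 1, 2, 5 and 2 by the main rule. For *H2-T3* this rests on the pseudocount of 0.5, since its strain effect was 3.54 with 0.1, which is over 5-fold. FlipFlop CD8 minus B6 CD4 called 2 without the TMM factor and 2 with the libraries of those groups alone, and B6 CD4 minus CD8 called 2 with its own libraries alone and 2 with the random block, which adds *H2-Q7*. Among genes averaging at least 5 CPM, FlipFlop CD4 minus B6 CD8 called 1, because *H2-T3* was not tested. With each library left out in turn the strain count ran from 3 to 7, with 3 without B6 CD8 replicate 3 or any of FlipFlop CD4 and CD8 replicates 2 and 3. *H2-D1* lost its call without those and without B6 CD8 replicate 2, and *H2-K1* lost it without those and without B6 CD4 replicates 1 and 3. The count of FlipFlop CD8 minus B6 CD4 ran from 2 to 6, with 2 without B6 CD4 replicates 1 and 3 or FlipFlop CD8 replicates 2 and 3, and that of B6 CD4 minus CD8 from 1 to 2, with 2 without FlipFlop CD8 replicate 3. The lineage calls of *H2-Q6* (-0.75 to -0.62) and *H2-Q7* (-0.60 to -0.43) and the strain calls of *H2-T23* (-0.85 to -0.73), *H2-T3* (1.79 to 1.90) and *B2m* (-1.21 to -0.89) held with each single library left out.

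Values near 0 changed sign. Without the TMM factor the strain effect of *H2-Q7* was 0.10, the lineage effects of *H2-K1*, *H2-D1* and *Tap2* were 0.09, 0.08 and 0.04, and the coreceptor effect of *B2m* was -0.01. With single libraries left out, the strain effect of *H2-Q7* ran from -0.09 to 0.09, and the coreceptor effects of *B2m* from -0.16 to 0.25 and of *H2-Q6* from -0.10 to 0.03. The cause of these changes was not tested. In B6 the same-numbered libraries correlated at 0.18, 0.09 and 0.35, so there the number was not taken as pairing. Both block fits nevertheless join B6 libraries by number. Without *H2-Q6*, *H2-Q7*, *H2-T22* and *H2-T3*, whose reads or levels are less certain, 4 of 6 transcripts were called by strain. Depth limits *H2-T3* in B6, where no library exceeded 3 reads.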
